A study of Gossypium hirsutum with 17 samples.

Results

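Whole upland cotton (Gossypium hirsutum, line C312) seedlings that had spent 2 days at 4 °C were compared with seedlings kept at 25 °C, on 3 arrays of each group out of the 17 arrays of the series. The arrays were chosen by their labels alone. Cold seedlings were germinated for 4 days at 25 °C, grown for 8 days at 25 °C on MS medium of pH 5.8 and then moved to 4 °C for 2 days, and control seedlings stayed at 25 °C throughout, with both groups collected 14 days after germination. No agent was added to the medium of either group, and no transgene or mutation is named for any group. Seedlings grown for 10 days on 200 mM mannitol or on 200 mM NaCl, with 3 arrays each, were used for direct comparisons of cold with another stress. RNA of each treatment was described in the methods as pooled from 3 biological replicates, while the labels call the arrays biological replicates, so the spread between arrays may be smaller than that between plants. The Affymetrix Cotton Genome Array, a one-colour array of short oligonucleotide probe sets, gave 1 signal for each of 24029 probe sets after control probe sets were left out. A value below is the log2 of that signal after quantile normalization, a difference is the cold mean minus the control mean on that scale, and SE is the standard error of that difference.

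Plants of warm climates such as cotton are injured by low temperature well above freezing. In Arabidopsis, cold induces the CBF/DREB1 factors of the AP2/ERF family within a short time, and these bind the C-repeat or dehydration-responsive element in the promoters of cold-regulated genes. Chilling also slows carbon export and photosynthesis, and starch breakdown supplies sugars that protect membranes and proteins.

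Cold replicate 3 stood apart from the other 5 arrays in its control probe sets. The log2 ratio of the 3' to the 5' actin probe set, which grows as RNA is degraded or copied incompletely, was 3.82, 2.69 and 7.22 in cold replicates 1, 2 and 3, against 3.05, 2.78 and 2.98 in the control arrays. With a second actin control the ratio was 2.62, 1.15 and 4.55 in the cold arrays, against 2.39, 1.14 and 1.58 in the control arrays. The median deposited signal was lowest in cold replicate 3 as well, at 27.1, 35.2 and 21.4 in the cold arrays, against 35.8, 36.8 and 37.6 in the control arrays. Correlations of log2 signals ran from 0.868 to 0.928 between cold arrays, from 0.809 to 0.898 between cold and control arrays and from 0.934 to 0.946 between control arrays. Of the 1359 probe sets raised in cold, 850 had their highest cold value in replicate 3, and of the 1317 lowered, 614 had their lowest there. Its part in the results was not tested, and the list counts that moved by 1.5 times or more are given without it as well. Cold replicate 2 had as its closest array NaCl replicate 2 (correlation 0.941), before any cold array. The labels were used as given, and the sources used here do not settle whether either array carries a wrong one. Without cold replicate 2, 2626 probe sets changed, against 2676 with all arrays, and 2012 were in both counts.

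**Figure D1:**
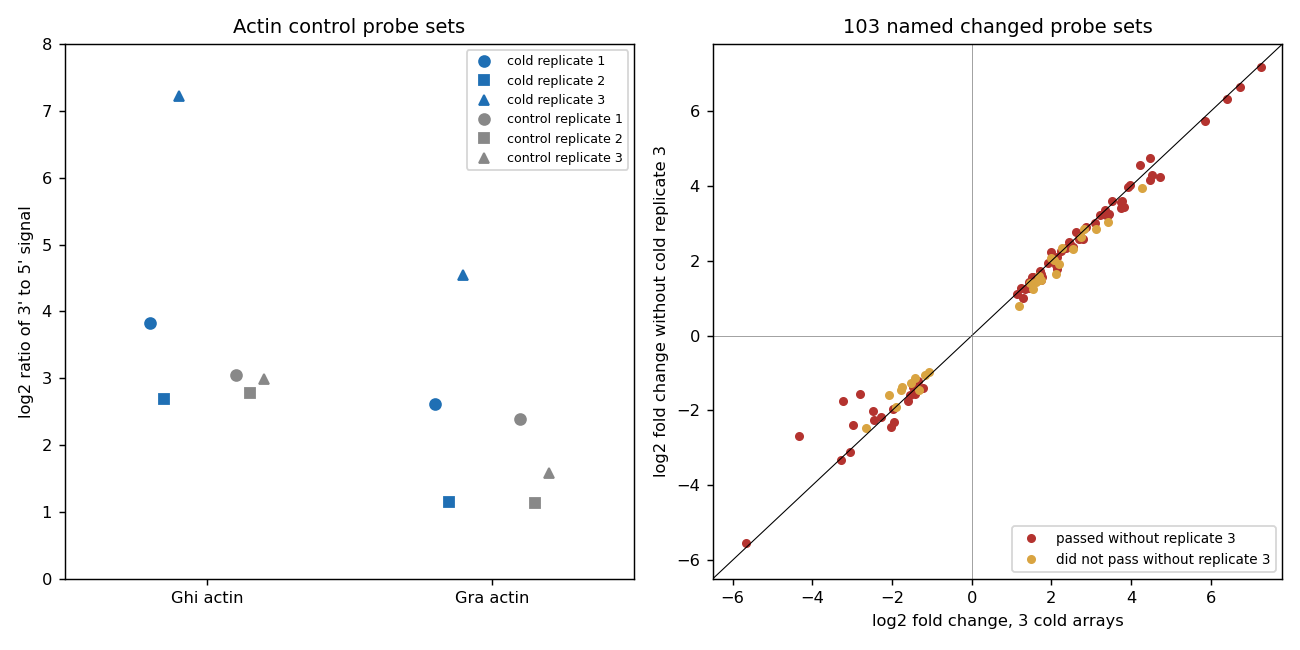
The left panel shows the log2 ratio of 3' to 5' actin signal on each cold and control array for both actin controls, and cold replicate 3 lies highest at 7.22 and 4.55. The right panel sets the log2 difference between cold and control with all 3 cold arrays (x axis) against that without cold replicate 3 (y axis) for the 103 named probe sets that changed, coloured by whether the call passed without that array. The points keep their direction.

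A probe set was called changed where the fold was at least 2 and limma's Benjamini-Hochberg adjusted p was at most 0.05 over all 24029. Cold raised 1359 probe sets (5.66% of those tested) and lowered 1317 (5.48%), together 2676 (11.1%). Of the raised ones, 564 changed 2- to 3-fold, 635 changed 3- to 10-fold and 160 changed over 10-fold, and of the lowered ones 625, 609 and 83 did. Without cold replicate 3, 1507 probe sets passed, 679 raised and 828 lowered, of which 624 and 698 were among those called with all arrays, and all 2676 kept their direction. How many of the changed probe sets were raised changed with the scaling: 2167 raised and 1236 lowered after median centring and 1119 raised and 2410 lowered after scaling to a 2% trimmed mean. The median difference of all probe sets was 0.15 and −0.21 under those scalings, so a small difference has a direction only relative to that shift.

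A name was given to 1010 probe sets, and 210 of these changed, 165 raised and 45 lowered. The platform annotation alone named 306 of the 1010, and the rest took their name from gene tables of the study, which were chosen on these same arrays and therefore are no independent evidence of a direction. Of the names from those tables, 149 were raised (21.2%) and 31 lowered (4.4%). Each list count below is to be read beside those shares. Of the 306, 16 were raised (5.23%) and 14 lowered (4.58%), near the shares over all probe sets. These 30 included CBF20/DREB1C, MPK3, ACS3/ACS6, all 4 probe sets of Aux4 and pod5, a peroxidase, among the raised, and the 3 expansin EXPA4 probe sets, ERF3, GAI2 and RCA1 among the lowered. The study's tables held all 26 zinc finger, 32 of 33 WRKY, 31 of 43 AP2/ERF, 22 of 27 homeobox and scarecrow, all 5 clock, 16 of 21 starch, all 4 thiamine and 10 of 58 cell wall probe sets, so the counts of most lists below rest on that choice. Several probe sets can measure 1 gene, and those with names ending in _s_at or _x_at can be shared by similar transcripts, so probe sets are not independent genes and homoeologous copies are not told apart.

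The study designed primers for 9 of the probe sets to measure them a second way by quantitative PCR, whose results are not used here. These give the transcripts behind 6 of the changed probe sets described below a sequence that can be placed, and the primers of those 6 are printed 5′ to 3′, in lower case throughout.
Thiamine biosynthesis protein forward: cagcctgagtttgttcta
Thiamine biosynthesis protein reverse: gttcacattcaatccatcaa
CRR3 forward: tatgacgaacaagaagacta
CRR3 reverse: cacagcattgaacaactt
NAC47 forward: gaagaagaagcagaacag
NAC47 reverse: tggagaaggaacaagatt
ADH1 forward: tactcgtcggtgttccaa
ADH1 reverse: tgtagttgccaaagaaggtt
HSP20 forward: tttgctaacaccagaatc
HSP20 reverse: catcttcaatctccactt
Scarecrow forward: ttccttaatggatccgcttg
Scarecrow reverse: aagttaagcgtgagcccaga

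**Figure D2:**
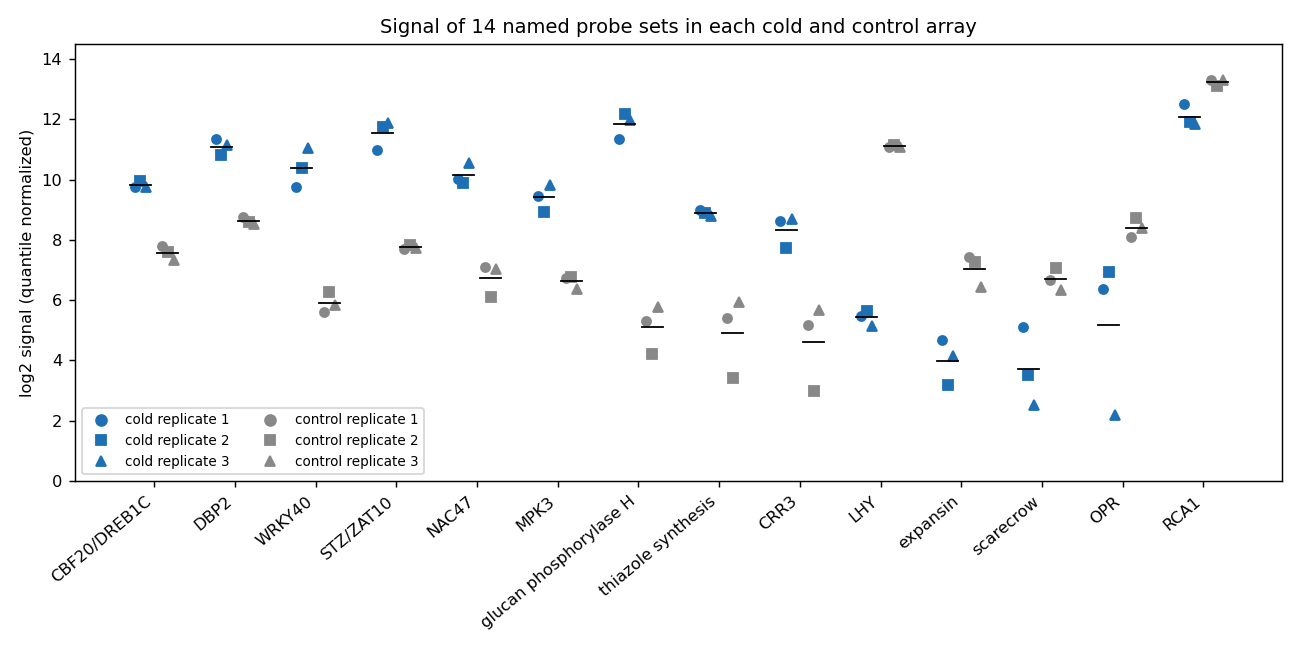
Normalized log2 signal (y axis) of 14 probe sets on each cold array (left, blue) and control array (right, grey), with a marker for each replicate and a black line at the group mean. The cold and control values do not overlap for any of the 14. The same holds for 2642 of the 2676 changed probe sets. Over all 24029 tested, called or not, cold lay wholly above control in 18.9% and wholly below in 17.7%.

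Of 43 probe sets of AP2/ERF factors, 8 were raised and 1 lowered. Their median difference was 0.74, against 0.00 over all probe sets tested and 0.33 over all named ones. The study's tables held 31 of the 43 names, and the count raised lies near the 21.2% raised among names from those tables. Of the 12 named by the platform alone, 1 was raised and 1 lowered. The CBF factor CBF20/DREB1C had values of 9.74, 9.95 and 9.75 in the cold arrays, against 7.79, 7.60 and 7.33 in the control arrays. The difference was 2.24 (SE 0.51, limma adjusted p = 0.0155), and it missed the adjusted p threshold without control replicate 3. DBP2, a dehydration-responsive element-binding factor, had values of 11.33, 10.81 and 11.14 in the cold arrays, against 8.77, 8.60 and 8.51 in the control arrays, a difference of 2.47 (SE 0.56, limma adjusted p = 0.0150). The groups were apart in both genes, by more than the spread within either. Both probe sets of another CBF gene, CBF17, did not pass, with differences of 0.06 and 0.59 (limma adjusted p = 0.857 and 0.314).

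The other raised AP2/ERF probe sets were 2 of 4 of ERF105, 2 of 3 of ERF071, 1 of ERF5 and 1 of 4 of RAP2-4, factors named for ethylene response. ERF105 had values of 9.58, 10.01 and 10.63 in the cold arrays, against 7.67, 8.01 and 7.98 in the control arrays. ERF3 was the lowered member, with 6.15, 6.99 and 6.48 in the cold arrays, against 8.35, 8.57 and 8.65 in the control arrays, a difference of −1.98 (SE 0.41, limma adjusted p = 0.0108). Without cold replicate 3, the AP2/ERF count was 2 raised and 1 lowered.

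Zinc finger factors had 11 raised and 0 lowered of 26 probe sets, with a median difference of 1.5. STZ/ZAT10, a C2H2 repressor that responds to salt and cold in Arabidopsis, had values of 10.97, 11.74 and 11.89 in the cold arrays, against 7.71, 7.84 and 7.74 in the control arrays, a difference of 3.77 (SE 0.86, limma adjusted p = 0.0152). It had 6 probe sets, of which 2 rose, and their differences ran from −0.17 to 3.77. NFXL1, an NF-X1-type factor that acts in stress responses in Arabidopsis, had values of 11.97, 11.56 and 12.09 in the cold arrays, against 8.74, 8.47 and 8.31 in the control arrays, a difference of 3.37 (limma adjusted p = 0.0142). One of 2 probe sets named as B-box factors, a family that acts in light signalling, rose, with values of 9.11, 9.03 and 9.39 in the cold arrays, against 6.74, 6.09 and 6.60 in the control arrays. The CCCH protein CCCH29 rose in 3 of 5 probe sets, the strongest of which had 8.29, 8.86 and 9.63 in the cold arrays, against 5.48, 4.89 and 5.14 in the control arrays. Without cold replicate 3, 6 of the 26 were raised and 1 was lowered.

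WRKY factors, which bind the W-box of defence and stress genes, had 12 raised and 0 lowered of 33 probe sets, with a median difference of 0.92. The 12 came from 3 genes by name. All 5 probe sets of WRKY40 rose, by 1.43 to 4.49, as did 4 of 5 of WRKY70, by 2.19 to 3.34, and all 3 of WRKY31, by 1.39 to 2.15. WRKY40, a repressor of defence and abscisic acid responses in Arabidopsis, had values of 9.74, 10.39 and 11.04 in the cold arrays, against 5.60, 6.28 and 5.84 in the control arrays at its most changed probe set, a difference of 4.49 (SE 0.78, limma adjusted p = 0.00561). WRKY70, which acts in salicylic acid signalling there, had values of 10.08, 10.98 and 10.48 in the cold arrays, against 7.82, 5.92 and 7.78 in the control arrays. Control replicate 2 was the low one of its group here. Without cold replicate 3, 4 of the 33 were raised.

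MYB and SANT factors had 3 raised and 3 lowered of 30, with a median difference of 0.18, the raised ones by 1.14, 1.54 and 3.13 and the lowered by 1.47 to 1.94 in size. Without cold replicate 3 the counts were 1 and 2. bZIP factors had 3 raised and 1 lowered of 17, and 1 and 0 without cold replicate 3. GBF6, a G-box-binding factor, rose in 2 of 4 probe sets, and the one with the smaller standard error had 6.97, 7.0 and 7.21 in the cold arrays, against 5.70, 5.89 and 5.59 in the control arrays, a difference of 1.33 (SE 0.18, limma adjusted p = 0.00212). TGA3, a bZIP factor of salicylic acid responses, was lowered by 1.33 in size. NAC47, a factor of the NAC family, had values of 10.02, 9.90 and 10.54 in the cold arrays, against 7.09, 6.11 and 7.03 in the control arrays. Its fold was 10.6 (limma adjusted p = 0.00382), and it was the only one of 17 NAC probe sets to pass, where 5 passed after median centring.

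Homeobox, scarecrow and related developmental factors ran the other way, with 1 raised and 5 lowered of 27 and a median difference of −0.50. Scarecrow, which patterns the root endodermis, had values of 5.12, 3.52 and 2.52 in the cold arrays, against 6.68, 7.07 and 6.34 in the control arrays, a difference of −2.98 (SE 0.53, limma adjusted p = 0.00630). A second scarecrow probe set fell by 1.55. The homeodomain leucine zipper genes ATHB-6, which acts in abscisic acid responses, and HAT4, which acts in shade responses, fell by 1.45 and 1.36. A second HAT4 probe set differed by −0.60 and did not pass. Scarecrow-like 5 was the raised member, with 7.04, 6.06 and 7.18 in the cold arrays, against 2.28, 2.69 and 1.77 in the control arrays, while its second probe set differed by −1.10 and did not pass. The 5 lowered and the 1 raised kept their counts without cold replicate 3, while a fit to the 6 cold and control arrays called 2 raised and 2 lowered.

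LHY, a MYB-like repressor at the core of the circadian clock whose transcript peaks at dawn, changed more than any other member of the clock list. Its values were 5.47, 5.66 and 5.15 in the cold arrays, against 11.09, 11.14 and 11.07 in the control arrays, a difference of −5.68 (SE 1.09, limma adjusted p = 0.00813), or 51.1-fold lower. The clock list had 5 probe sets, of which 0 were raised and 2 lowered, and 1 lowered without cold replicate 3. The second was 1 of 3 probe sets of APRR7, a pseudo-response regulator that represses LHY in Arabidopsis, with 7.51, 6.36 and 6.91 in the cold arrays, against 9.03, 8.65 and 8.84 in the control arrays. Its adjusted p of 0.0490 in limma rose above the threshold whichever array of the 6 was left out, and the other 2 differed by −0.52 and −0.91. The hour of harvest is not given in the sources used here.

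Among kinases and calcium signalling genes, 9 were raised and 1 lowered of 39, with a median difference of 0.21, and without cold replicate 3 the counts were 6 and 0. The study's tables held 26 of the 39 names, and the count raised lies near the 21.2% raised among names from those tables. AGC2-1, also called OXI1, a kinase induced by oxidative signals in Arabidopsis, had values of 9.77, 9.38 and 11.00 in the cold arrays, against 5.28, 5.28 and 5.44 in the control arrays, a difference of 4.72 (SE 0.82, limma adjusted p = 0.00554). MPK3, a MAP kinase activated by many stresses, rose in 4 of 7 probe sets by 1.96 to 2.91. The most significant of them had 9.46, 8.94 and 9.83 in the cold arrays, against 6.73, 6.76 and 6.39 in the control arrays. CIPK6, a kinase that calcineurin B-like calcium sensors activate, rose by 1.41 and 1.45 in 2 probe sets. The list of protein phosphatases 2C, which hold abscisic acid signalling off, and of 3 further abscisic acid signalling probe sets had 3 raised and 0 lowered of 13, and 2 raised without cold replicate 3. The 3 raised were phosphatases. All 13 names came from the study's tables, of whose names 21.2% were raised, and the count lies near that share. Dehydrins and LEA proteins, which protect cells that lose water, had 1 raised and 0 lowered of 5. The raised one, SAG21, had values of 11.31, 11.53 and 12.63 in the cold arrays, against 10.71, 10.51 and 10.68 in the control arrays, and its difference of 1.19 was 0.79 without cold replicate 3 and no longer passed.

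Starch and soluble sugar metabolism had 11 raised and 0 lowered of 21 probe sets, with a median difference of 1.71. The count lay between 10 and 11 whichever array was left out, and it was 10 without cold replicate 3. The raised members acted mainly in starch breakdown. All 11 were named from the study's tables, and several are among the transcripts that the paper lists as raised by all 5 stresses. Glucan phosphorylase H, the cytosolic form, had values of 11.35, 12.16 and 11.98 in the cold arrays, against 5.29, 4.21 and 5.78 in the control arrays, a difference of 6.73 (SE 1.01, limma adjusted p = 0.00310) or 106-fold. PHS2, named for the cytosolic phosphorylase of Arabidopsis, had values of 6.69, 7.56 and 7.71 in the cold arrays, against 2.96, 4.40 and 4.23 in the control arrays. A further starch phosphorylase had 7.02, 6.98 and 7.10 in the cold arrays, against 4.73, 5.16 and 4.80 in the control arrays, and its 3 values in each group lay close together (difference 2.13, SE 0.22, limma adjusted p = 0.000892).

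The enzymes that phosphorylate the granule surface before it is degraded rose as well. Phosphoglucan water dikinase rose by 2.37 and 3.37 in its 2 probe sets and α-glucan water dikinase by 2.46 and 2.90. A SEX4-like protein, named for the phosphatase that removes those phosphates, rose by 1.71. An α-amylase had values of 6.17, 6.40 and 6.63 in the cold arrays, against 4.60, 4.12 and 4.19 in the control arrays, a difference of 2.10 (SE 0.28, limma adjusted p = 0.00212). A chloroplast β-amylase did not pass, with a difference of 1.85 (limma adjusted p = 0.0754).

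All 4 probe sets of thiamine synthesis rose, with a median difference of 3.41, and 3 of them passed without cold replicate 3. All 4 names came from the study's tables. The paper lists these transcripts as raised by all 5 stresses, cold included, on these same arrays. That all 4 rose is therefore no independent evidence about the pathway. Thiamine diphosphate is a cofactor of central carbon metabolism. The thiazole biosynthetic enzyme, which makes the thiazole ring, had values of 9.0, 8.89 and 8.79 in the cold arrays, against 5.41, 3.42 and 5.93 in the control arrays, a difference of 3.97 (SE 0.59, limma adjusted p = 0.00304). A thiamine biosynthesis protein had 9.10, 8.92 and 8.87 in the cold arrays, against 5.48, 3.79 and 5.81 in the control arrays. The cold values of both spanned less than those of the controls, among which replicate 2 was low. It was the lowest control array for 4 of 4 raised thiamine, 4 of 4 raised chloroplast, 6 of 11 raised starch and 8 of 12 raised WRKY probe sets, and for 612 of all 1359 raised probe sets.

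Of 7 photosynthesis and chloroplast probe sets, 4 were raised and 1 lowered, and 3 and 0 without cold replicate 3. The study's tables held 6 of the 7 names, with all 4 raised ones among them, and 21.2% of the names from those tables were raised. CRR3 and NDF1, subunits or assembly factors of the NDH complex that carries cyclic electron flow around photosystem I, were both raised. The paper lists both among the transcripts raised by all 5 stresses, cold included, on these same arrays. Their rise is therefore no independent evidence. CRR3 had values of 8.63, 7.72 and 8.68 in the cold arrays, against 5.17, 2.97 and 5.68 in the control arrays, a difference of 3.74 (SE 0.57, limma adjusted p = 0.00326). NDF1 had 8.74, 9.12 and 9.21 in the cold arrays, against 5.95, 5.58 and 6.25 in the control arrays. A fibrillin, a protein of plastid lipid droplets, rose by 1.74 at 1 of 2 probe sets. RCA1, the activase that keeps Rubisco active, had values of 12.50, 11.90 and 11.83 in the cold arrays, against 13.31, 13.12 and 13.31 in the control arrays. Its difference of −1.18 (SE 0.33, limma adjusted p = 0.0322) missed the threshold in 5 of the 6 fits that left out 1 array.

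Hormone genes had 8 raised and 2 lowered of 36, with a median difference of 0.28, and without cold replicate 3 the counts were 3 and 1. The study's tables held 16 of the 36 names, and the count raised lies near the 21.2% raised among names from those tables. Of the 20 named by the platform alone, 5 were raised, and Aux4 made up 4 of these. ACC oxidase, which makes ethylene, had values of 4.86, 6.35 and 5.82 in the cold arrays, against −1.18, −1.23 and −2.32 in the control arrays. The control values lie at the floor of the array, so the size of the difference of 7.26 (SE 0.78, limma adjusted p = 0.000892) is uncertain. ACS3/ACS6, an ACC synthase of the step before, rose by 1.64. The other ACC oxidase and ACC synthase probe sets of the list, named ACO1, ACO3, ACS and ACS1, did not pass. ACO3 differed by 0.94, below the fold threshold. The auxin genes GH3.1, which conjugates auxin to amino acids, and Aux4, an Aux/IAA repressor, rose by 2.25 and by 1.21 to 1.97. GAI2, a DELLA repressor of gibberellin responses, fell by 1.06, just past the fold threshold. It lost its call without cold replicate 3, without control replicate 2, in the fit to 6 arrays and after median centring. A 12-oxophytodienoate reductase, an enzyme class of jasmonate synthesis, had values of 6.38, 6.93 and 2.17 in the cold arrays, against 8.08, 8.71 and 8.40 in the control arrays. Cold replicate 3 was far below the other cold arrays there, and the difference of −3.24 was −1.75 without it.

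Of 58 cell wall probe sets, 0 were raised and 4 lowered, with a median difference of −0.07. The expansin EXPA4, which loosens walls as cells grow, accounted for 3 of them. Its most changed probe set had 4.68, 3.17 and 4.14 in the cold arrays, against 7.43, 7.27 and 6.42 in the control arrays, a difference of −3.04 (SE 0.38, limma adjusted p = 0.00173). The other 2 fell by 2.46 and 2.27, and all 3 names came from the platform annotation. Pectinesterase 3, a pectin-modifying enzyme of the quantitative PCR set, had values of 8.95, 9.21 and 6.75 in the cold arrays, against 9.84, 10.63 and 9.60 in the control arrays and did not pass (limma adjusted p = 0.0559). The other 2 of that set that did not pass were nitrate transporter 1.4, with a difference of −2.21 (limma adjusted p = 0.0556), and a salicylate-induced glucosyltransferase, with −1.66 (limma adjusted p = 0.222).

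Redox and detoxification genes had 7 raised and 0 lowered of 48. Alcohol dehydrogenase ADH1, the enzyme that ends ethanol fermentation, had values of 6.87, 6.68 and 6.78 in the cold arrays, against 5.10, 5.13 and 4.92 in the control arrays, a difference of 1.73 (SE 0.31, limma adjusted p = 0.00633). A zinc-binding oxidoreductase rose in 3 probe sets, one of which had 9.44, 9.49 and 9.25 in the cold arrays, against 6.96, 6.97 and 6.93 in the control arrays. Heat shock proteins had 2 raised and 1 lowered of 11, and 1 and 0 without cold replicate 3. HSP20, the small heat shock chaperone of the quantitative PCR set, was the lowered one, with 5.80, 7.83 and 6.27 in the cold arrays, against 10.21, 7.83 and 9.79 in the control arrays. Its groups met at the value of cold replicate 2 and control replicate 2, and its difference of −2.64 (limma adjusted p = 0.0306) passed in 2 of the 6 fits that left out 1 array.

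In the remaining lists, translation had 4 raised and 0 lowered of 20. Elongation factor 1β accounted for 2 of these, with 9.47, 10.14 and 10.07 in the cold arrays, against 4.31, 2.34 and 3.82 in the control arrays at 1 probe set, a difference of 6.41 (SE 0.92, limma adjusted p = 0.00263). Phenylpropanoid genes had 3 raised and 1 lowered of 15 (2 and 0 without cold replicate 3), and the raised ones were PAL1 and PAL2, which take phenylalanine into the pathway, and CCR1, which starts the lignin branch. Lipid genes had 5 raised and 2 lowered of 40, among them an acyl-CoA binding protein raised by 2.50 and the stearoyl desaturase sad1 lowered by 1.42. Transporters had 2 raised and 3 lowered of 20 (1 and 0 without cold replicate 3), defence genes 2 and 0 of 13, and cytoskeleton genes 2 and 0 of 27. Glp1, a germin-like protein, had values of 11.51, 11.39 and 10.64 in the cold arrays, against 5.87, 5.86 and 8.36 in the control arrays. TRF-like 6 had 4.11, 4.01 and 4.17 in the cold arrays, against 7.33, 7.20 and 7.63 in the control arrays, a difference of −3.29 (SE 0.50, limma adjusted p = 0.00326).

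**Figure D3:**
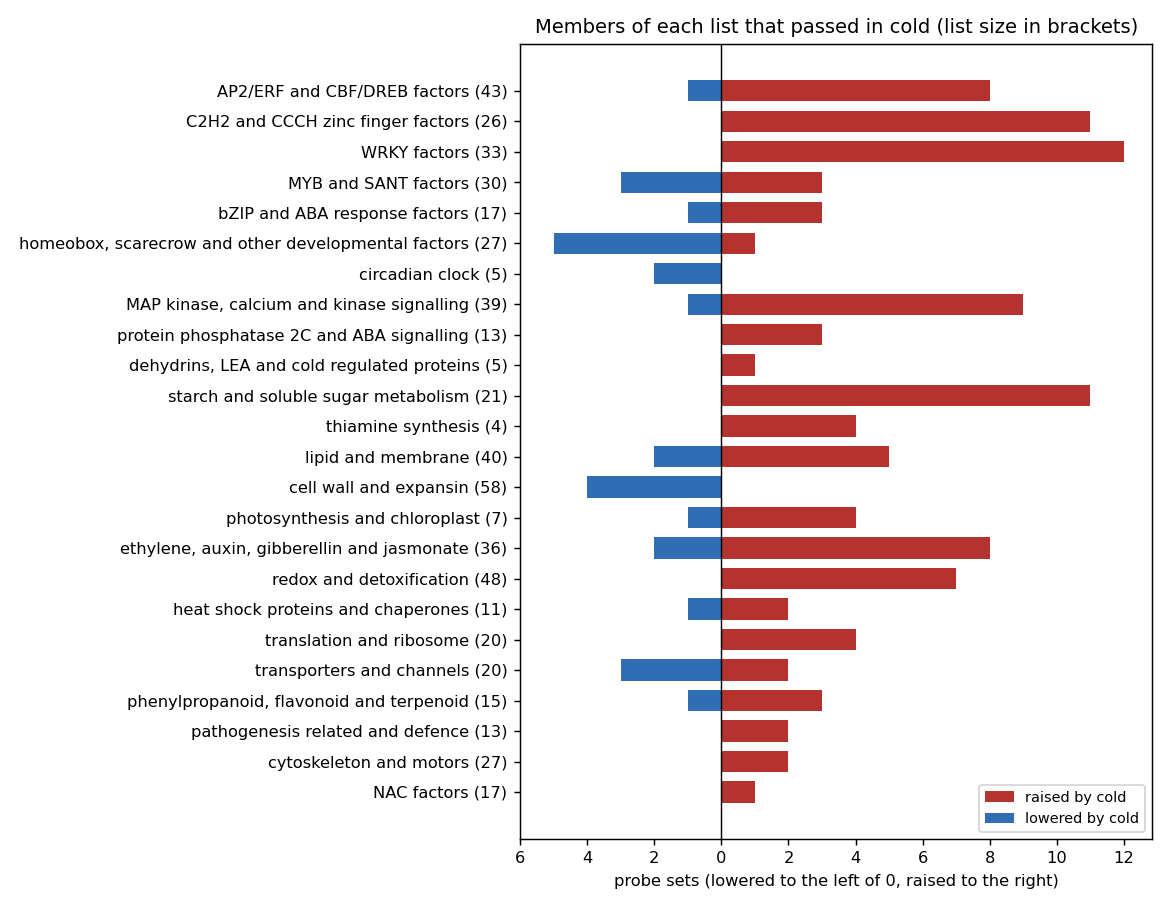
For each list of named probe sets, the number raised (bars to the right) and lowered (bars to the left) in cold against control, with the size of the list in brackets. The lists of WRKY, zinc finger and starch probe sets have the longest bars to the right, with 12, 11 and 11.

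The seedlings hold root, stem and cotyledon, and in such bulk samples fewer cells of a kind and less RNA per cell cannot be told apart. The summed linear signal of 4 root markers ran from 285 to 476 in the cold arrays, against 661 to 947 in the control arrays, with 1 raised and 1 lowered, and 0 and 0 without cold replicate 3. These members did not share a direction. Nitrate transporter 1.5 differed by 2.12 and the potassium channel AKT1 by 0.88. The 2 probe sets of nitrate transporter 1.4 differed by −2.21 and −2.07. The 2 leaf markers, RCA1 and a photosystem II protein, summed to 3704 to 5875 in the cold arrays, against 9008 to 10245 in the control arrays, with 0 raised and 1 lowered, and 0 and 0 without cold replicate 3. RCA1 made up most of that sum and was the lowered one, and the photosystem II protein differed by −0.13 (limma adjusted p = 0.885). The 10 seed reserve and embryo markers summed to 10836 to 12038 in the cold arrays, against 8133 to 9181 in the control arrays, with 0 raised and 0 lowered, and 1 and 0 without cold replicate 3. The 6 fibre markers summed to 3837 to 4908 in the cold arrays, against 4605 to 5172 in the control arrays, with 0 raised and 0 lowered. The part of tissue make-up in the results above was not tested.

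Cold was also set directly against mannitol and NaCl, which leaves out the control arrays. Cold differed from mannitol in 4652 probe sets (19.4% of those tested), 2227 higher and 2425 lower. The mannitol arrays had been deposited on another scale, with a trimmed mean signal of 500, against 107 to 127 on the cold arrays before normalization. Of the AP2/ERF probe sets 3 were higher and 5 lower in cold than in mannitol, of the kinases and calcium signalling genes 2 and 15, of the list of protein phosphatases 2C and abscisic acid signalling 0 and 5, and of the thiamine list 0 and 0. NFXL1 was higher in cold by 3.80 (limma adjusted p = 0.00335), AGC2-1 by 3.88 and the B-box factor by 2.54. ATHB-6 and HAT4 were lower in cold than in mannitol by 2.17 and 2.42 in size, TGA3 by 2.24 and TRF-like 6 by 2.95. The thiazole biosynthetic enzyme differed from mannitol by −0.33 (limma adjusted p = 0.731), which does not show that its levels were alike.

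**Figure D4:**
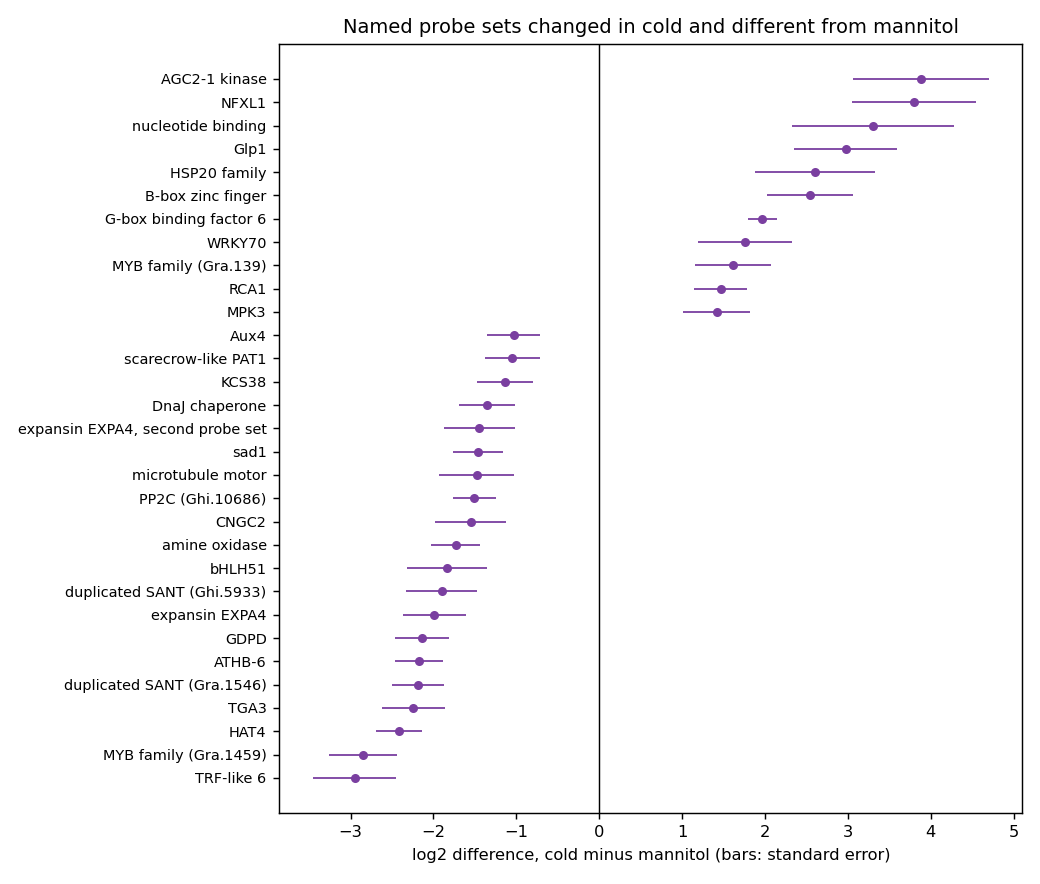
Difference in normalized log2 signal between cold and mannitol arrays (x axis, with bars of 1 standard error) for the 31 of the 103 named probe sets changed in cold that passed in that comparison. AGC2-1 lies highest at 3.88 and TRF-like 6 lowest at −2.95.

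Cold differed from NaCl in 74 probe sets (0.308% of those tested), 39 higher and 35 lower. Of the probe sets in the lists, 1 of GBF6 passed, higher in cold by 1.10 (limma adjusted p = 0.0417). This comparison rested on NaCl replicate 2, the array closest to cold replicate 2. NaCl replicate 3 was closest to a control array (0.924), so the NaCl arrays did not group together. NaCl replicate 1 was faint as deposited, with a trimmed mean signal of 18.5, against 140 and 124 on NaCl replicates 2 and 3. Its mean correlation with the other NaCl arrays was 0.827, and without it 18 probe sets differed between cold and NaCl. Its part alone in the count of cold against control was not tested. Without NaCl replicate 2, 4119 probe sets differed between cold and NaCl, so the small count with all arrays says little of how alike the stresses are.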

How the data were processed

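RNA of whole cotton seedlings was hybridized to 17 one-colour Affymetrix arrays. The intensity values deposited by the authors were MAS5 signals per probe set (per the submitters' processing notes), linear and scaled differently between groups. The labels' hybridization text mentions 2 dyes, but the label given is biotin, and the arrays were treated as one-colour. The 103 control probe sets were left out of the 24132 deposited, and quantile normalization over all 17 arrays followed on the log2 scale. limma 3.58.1 (R 4.3.3) was fitted with 1 coefficient per condition and no filter on low signal, so that all groups shared 1 estimate of the spread. Scripts were tested on simulated data. Figures used Python 3.11.15 and matplotlib 3.10.9.

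Probe sets were named from the platform annotation and from gene tables of the study, only for their names. The platform annotation covered 743 probe sets, of which 697 were in RefSeq and 46 had several genes and took no name from it. Members and lists were chosen with earlier results of these data known. The genes named in the text were up to 6 changed members with the smallest adjusted p of each list of transcription factors, clock, starch and thiamine genes, up to 4 of each other list, the 12 most raised and the 12 most lowered named probe sets, the 9 probe sets of the quantitative PCR and all CBF and DREB probe sets. A few further members are given by their difference only, and were chosen after their values were seen. A CCR-like protein was taken out of the phenylpropanoid list after the data were seen. p-values measure the spread between arrays, and the number of arrays limits the precision. Alternatives were SAM on the 6 arrays (the methods' test), a fit to 6 arrays, other scalings, an offset of 32 before log2, a filter on the lowest 25% of signals, a variance trend, a replicate block and leaving out each array. Sequences come from the study's primer table.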

Additional observations from a re-analysis of the deposited data

Results flagged for a closer look

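Cold replicate 3 had the highest 3' to 5' actin ratios, which are outside the gene measurements: 7.22 and 4.55 on the log2 scale for the 2 actin controls, against at most 3.05 and 2.39 in the control arrays. Of the 103 named probe sets that changed, 27 lost their call without this array, against 13 and 10 without cold replicates 1 and 2, and 27, 26 and 29 without control replicates 1, 2 and 3.

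One named probe set changed differently in cold and in NaCl by the direct test of the difference. GBF6 was higher in cold by 1.10 (limma adjusted p = 0.0417).

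In the direct test against mannitol, 31 of the 103 named probe sets that changed in cold differed, on arrays deposited at another scale. Higher in cold were AGC2-1 by 3.88, NFXL1 by 3.80, a nucleotide-binding protein by 3.31, Glp1 by 2.97, HSP20 by 2.60, the B-box factor by 2.54, GBF6 by 1.97, WRKY70 by 1.76, a MYB factor by 1.62, RCA1 by 1.46 and MPK3 by 1.42. Lower in cold than in mannitol were Aux4 (−1.03), PAT1 (−1.05), KCS38 (−1.14), a DnaJ chaperone (−1.35), sad1 (−1.46), a microtubule motor (−1.48), a protein phosphatase 2C (−1.51), CNGC2 (−1.55) and an amine oxidase (−1.73). The expansin EXPA4 differed by −1.45 and −1.99 at 2 probe sets, and bHLH51 by −1.84. SANT proteins differed by −1.90 and −2.19, a glycerophosphodiester phosphodiesterase by −2.14, ATHB-6 by −2.17, TGA3 by −2.24, HAT4 by −2.42, a MYB factor by −2.85 and TRF-like 6 by −2.95. These differences rest on limma adjusted p values at or below the threshold, and no cause was tested.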

How the results depend on the processing

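The count of 2676 probe sets changed in cold fell to 174 (50 raised, 124 lowered) with no rescaling of the 17 arrays and to 1764 with an offset of 32, and was 4699 at an unadjusted p. It was 2889 in SAM, 1877 and 1975 in the fits to 6 arrays, 2101 in 6 arrays with no rescaling, 3403 after median centring, 3529 after trimmed mean scaling and 2493 with a replicate block. Deviations from the group means of cold and control arrays with the same number correlated at 0.0046, 0.079 and 0.016. No pairing by number was seen in these values, which cannot show that the arrays were unpaired. Leaving out 1 array gave 1432 (without control replicate 3) to 2626 (without cold replicate 2), with 1507 without cold replicate 3, 1512 without control replicate 1 and 1466 without control replicate 2. Without the 3 NaCl arrays in the fit it was 3991. Chosen after seeing the data, leaving out NaCl replicate 2 gave 3589 and leaving out that array and cold replicate 3 gave 3108. The median difference of all probe sets was −0.27 with no rescaling, 0.15 after median centring and −0.21 after trimmed mean scaling. The count of 74 between cold and NaCl was 3 with no rescaling and ranged from 18 (without NaCl replicate 1) to 4119 (without NaCl replicate 2), with 32, 153 and 24 without cold replicates 1, 2 and 3 and 33 without NaCl replicate 3. That of 4652 between cold and mannitol was 18458 with no rescaling, where the deposited scales differ, and ranged from 3177 to 5111 when 1 array was left out. Of 132 named probe sets 103 changed, and none of these 103 reversed in any setting. For the rest a change of sign counted only where the setting called it. A CBF17 probe set at 0.06 ranged from −0.06 to 0.16 when 1 array was left out. Of the 103 changed, 67 kept the call in all 6 leave-one-out fits, 89 lost it with no rescaling, 24 in the fit to 6 arrays, 11 with the offset and 2 with the replicate block. With no rescaling, 0 AP2/ERF, zinc finger or WRKY probe sets passed, and 1 starch and 3 thiamine ones were raised, while after median centring 12, 15, 15, 12 and 4 of these lists were raised. The cause of these shifts was not tested.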

Other observations

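Most changed probe sets carry no name here, 1194 of those raised and 1272 of those lowered. The most raised of them had 8.0, 8.42 and 9.16 in the cold arrays, against −1.04, 1.70 and 0.69 in the control arrays (difference 8.08, limma adjusted p = 0.00218). Another raised one had 7.43, 8.51 and 8.58 in the cold arrays, against 1.77, 1.36 and 1.44 in the control arrays. The most lowered had 0.13, −0.55 and 0.32 in the cold arrays, against 7.39, 6.67 and 7.05 in the control arrays (difference −7.07, limma adjusted p = 0.0101). Another lowered one had −0.23, 0.32 and 2.54 in the cold arrays, against 6.36, 6.40 and 5.88 in the control arrays. The low group of each lies near the floor of the array, so the sizes of these differences are uncertain. In 1990 of the 2676 changed probe sets the higher group mean was above the median log2 signal of all probe sets, 6.0, and in 686 it was not.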
